A study of Mus musculus with 18 samples.

Results

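The 39 genes described here encode the enzymes and transporters of glycolysis, of lactate production and export, of the pyruvate dehydrogenase gate and of glycogen turnover, together with the oxygen-sensing factor Hif1a and 2 of its classical targets. They were listed by name, with earlier results of these data known, and all 39 were found by Ensembl gene ID among the 27997 genes of the expression table. The table holds log2 expression values of 18 mouse RNA-seq libraries in 6 groups of 3. Each of 3 adherent culture lines was collected as neural stem cells (NSCs) after 4 days in medium with bFGF, EGF, heparin and laminin, and as astrocytes after 6 days of culture, in which the NSC medium had been exchanged for medium with BMP4 (20 ng/ml). BMP4, the exchange of medium and the longer culture cannot be told apart in any NSC to astrocyte difference.

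The tdTomato line (genotype DNGR-1 +/- Tom+/-) and the EYFP line (DNGR-1 +/- EYFP+/-) came from spinal cords of mice in which Cre driven by the Clec9a locus, which encodes the receptor DNGR-1, switches on the reporter in cells with a DNGR-1 history. Both are called traced lines. The hippocampal line (DNGR-1+/+) came from GlastCre Huwe1 fl Rosa LSL EYFP mice, so tissue of origin, genotype and culture history differ together between it and the traced lines. Each line is a single culture line, and its 3 libraries per fate are passages 10, 11 and 12. Huwe1, floxed in the mice of the hippocampal line, lay between 12.97 and 13.38 in all 18 libraries. The p-values within a line, between the traced lines and for the differences of the change therefore measure the spread between passages and not between animals. The fits of traced minus hippocampal lines took both traced lines as 1 group, so the gap between them enters their error, and the fit over all lines takes 1 change for the 3 lines, so its error also holds how far their changes differ. The study's methods give a general range of weeks for the age of its mice, and no age for the animals behind each line.

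Glucose enters cells through facilitative transporters, is trapped by hexokinases, and is split by glycolysis to pyruvate. Pyruvate is either reduced to lactate by lactate dehydrogenase, and exported with a proton by monocarboxylate transporters, or admitted to mitochondria by pyruvate dehydrogenase, which the PDK kinases switch off by phosphorylation. In the brain, glycogen is stored mainly in astrocytes, which break it down with glycogen phosphorylase and are known as suppliers of lactate. Several steps are shared by paralogous enzymes with different regulation, and proliferating cells are known for high Hk2 and Ldha.

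The 2 fates differed in marker genes. Of 7 NSC and astrocyte markers (Nes, Sox2, Gfap, Aqp4, S100b, Slc1a3 and Aldoc), 6 were higher and 1 was lower in astrocytes over all lines. In the hippocampal line 6 were higher, 0 were lower and 1 was not called, so the NSC markers Nes and Sox2 did not fall there. Mki67, a proliferation gene, lay between 12.75 and 13.07 in the 9 NSC libraries and between 6.42 and 7.15 in the 9 astrocyte libraries, and Gfap, the astrocyte filament, between 8.96 and 9.44 and between 14.69 and 16.66. Of 6 microglia and leukocyte markers 3 were in the table, with a log2 of their summed linear values of 0.96 to 2.00 over all libraries. The same sum for 5 endothelial and mural markers was 3.75 to 4.50 in NSCs and 7.36 to 8.07 in astrocytes, for 7 oligodendrocyte lineage markers 15.79 to 16.09 and 13.66 to 15.07, for 4 ependymal markers 9.46 to 10.51 and 11.01 to 12.34, and for 6 neuron markers 14.45 to 14.62 and 13.91 to 14.34. Over all lines 3 of the 5 neuron markers tested rose (Rbfox3 by 1.73, Dcx by 1.47 and Tubb3 by 0.85 on the log2 scale), and Map2 fell, by 0.35. Their part in the changes below was not tested. Xist lay between 13.09 and 14.99 in the tdTomato line and between 5.04 and 5.59 in the other lines. Of 5 sex-linked genes checked, 1 was higher and 4 were lower in the tdTomato than in the EYFP line, in NSCs and in astrocytes. Sex-linked expression thus differs between lines along with their other differences. Its part in line differences of the members, the X-linked Pgk1 and Pdha1 among them, was not tested. In bulk RNA, fewer cells of a type and less RNA per cell cannot be told apart.

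A gene was called where its Benjamini-Hochberg adjusted p in limma, over all genes tested in that comparison, was under 0.05. Changes are given as astrocyte minus NSC on the log2 scale, and differences of the change between lines as traced minus hippocampal or as tdTomato minus EYFP. Over all lines, 16 of the 39 genes were higher in astrocytes, 11 were lower and 12 were not called, where 81.9% of all 15448 genes tested were called (42.1% higher and 39.8% lower). In the tdTomato line 18 rose and 9 fell of 38 tested (background 79.3% called, 39.9% higher and 39.5% lower). The EYFP line gave 21 higher and 9 lower of 39 (74.9% called, 37.5% and 37.4%). In the hippocampal line 16 rose and 20 fell of 39 (77.3% called, 39.2% and 38.2%). The median log2 change of the tested members was 0.16, 0.35 and -0.25 in the tdTomato, EYFP and hippocampal lines, beside medians of 0.001, 0.004 and 0.009 over all genes. The numbers called in the traced lines were thus near the background, and the pathway did not move as a block in any line. Some paralogues of one step moved in opposite directions in every line (Hk1 and Hk2, Ldha and Ldhb, Slc16a1 and Slc16a3), while others rose together in every line (Aldoa and Aldoc, Pfkm and Pfkp, Pfkfb2 and Pfkfb3, Pdk2 and Pdk4), as the plot of changes by line shows.

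**Figure D1:**
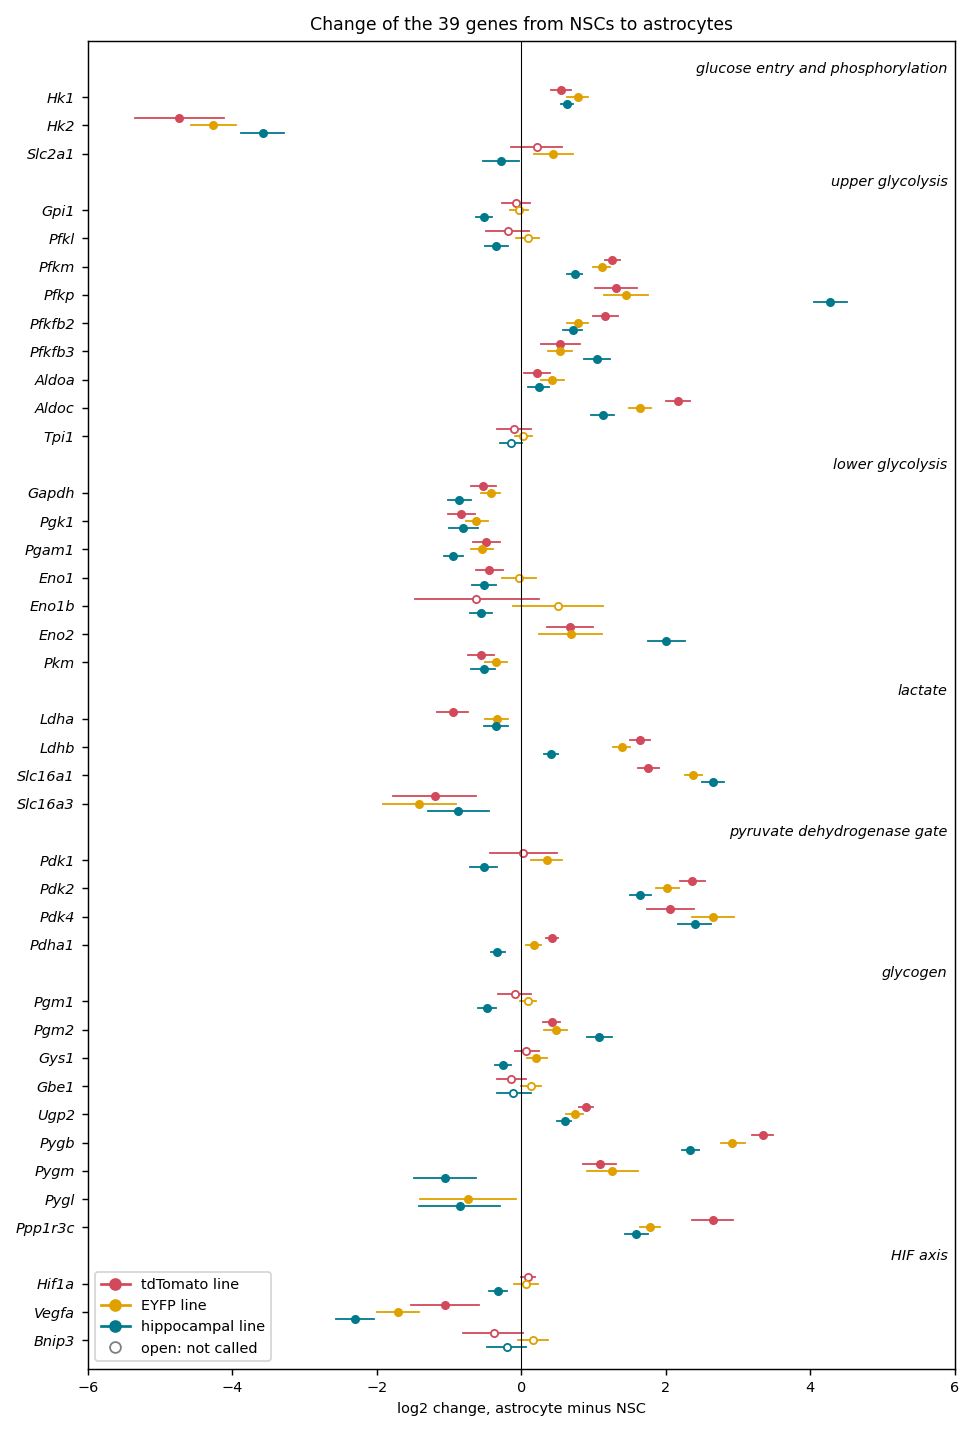
Log2 change from NSCs to astrocytes (x axis, astrocyte minus NSC) of each member (y axis, grouped by role) in the tdTomato, EYFP and hippocampal lines, with limma's 95% confidence interval as a horizontal bar and filled points for called changes (n = 3 libraries per fate and line). Hk2 lies farthest to the left, Pfkp of the hippocampal line farthest to the right at 4.28, and the 3 lines lie on opposite sides of 0 for Pygm and Pdha1.

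Taken line by line, 16 members rose in all 3 lines, where 28% of the 14211 genes tested in every line did, and 8 fell in all 3, where 28.9% did. The 16 were Hk1, Pfkm, Pfkp, Pfkfb2, Pfkfb3, Aldoa, Aldoc, Eno2, Ldhb, Slc16a1, Pdk2, Pdk4, Pgm2, Ugp2, Pygb and Ppp1r3c. The 8 were Hk2, Gapdh, Pgk1, Pgam1, Pkm, Ldha, Slc16a3 and Vegfa. A further 5 genes, Slc2a1, Pdk1, Pdha1, Gys1 and Pygm, rose in at least 1 traced line and fell in the hippocampal line, a pattern held by 2.45% of all genes. For Slc2a1, Pdk1 and Gys1 the traced rise was the EYFP call alone. That call was lost with no filter for Slc2a1 (adjusted p = 0.051) and in 1 model of 6 groups for Pdk1 (adjusted p = 0.0735). The hippocampal call of Slc2a1 was lost under 3 planned settings as well. Another 5, Gpi1, Pfkl, Eno1b, Pgm1 and Hif1a, fell in the hippocampal line and were not called in either traced line, as did 3.3% of all genes. None fell in a traced line and rose in the hippocampal line, a pattern of 2.54% of all genes. Eno1 and Pygl were called in some lines only, and Tpi1, Gbe1 and Bnip3 in none.

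Glucose entry turned on the hexokinases. Hk2, the growth-regulated hexokinase bound to the outer mitochondrial membrane, showed the largest change of all members over all lines and in both traced lines, and was second to Pfkp in the hippocampal line. Its gene lies on chromosome 6 from 82725025 to 82774454 on the minus strand (GRCm38). In NSCs, Hk2 lay at 9.13, 9.88 and 9.27 in the tdTomato line, 8.79, 9.24 and 9.23 in the EYFP line and 8.72, 8.77 and 9.15 in the hippocampal line. Its astrocyte values were 4.08, 4.93 and 5.05 in the tdTomato line, 4.90, 4.72 and 4.84 in the EYFP line and 5.45, 5.24 and 5.22 in the hippocampal line. The 2 fates did not overlap in any line. Hk2 fell, with a log2 change of -4.74 (SE 0.27, adjusted p = 2.5e-07) in the tdTomato line, -4.26 (SE 0.14, adjusted p = 5.1e-09) in the EYFP line and -3.58 (SE 0.13, adjusted p = 6.9e-09) in the hippocampal line, a fold of 26.6, 19.2 and 11.9 downwards. The fall was larger in the traced lines than in the hippocampal line, with a difference of the change of -0.92 (SE 0.27, adjusted p = 0.0103). With the EYFP line alone against the hippocampal line, an alternative chosen after seeing the data, the adjusted p was 0.0978.

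The promoter window of Hk2 is shown because members of the HIF axis appear in the list and many glycolytic genes are classical HIF targets. The sequences here and below are RefSeq windows (GRCm38.p6) of 300 bases, from 250 before to 50 after a transcription start, written 5′ to 3′ on the gene's strand, with each match to the HIF core motif ACGTG or GCGTG, on either strand, in capitals.

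Hk2 (chr6:82774405-82774704, minus strand): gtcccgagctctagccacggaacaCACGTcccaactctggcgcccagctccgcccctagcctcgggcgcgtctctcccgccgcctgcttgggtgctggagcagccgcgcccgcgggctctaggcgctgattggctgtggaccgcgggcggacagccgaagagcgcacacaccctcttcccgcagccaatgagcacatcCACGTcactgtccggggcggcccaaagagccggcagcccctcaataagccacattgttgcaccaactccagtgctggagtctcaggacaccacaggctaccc

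The Hk2 window held 2 matches. A window was found for 38 of the 39 genes, giving 56 windows, of which 76.8% held the motif at least once, as 43.8% of all 32851 mouse windows did. Counted by gene, 33 of the 38 had a match. The E-box CACGTG, which contains ACGTG on both strands and so is also counted there, was in 16.1% of the members' windows and in 7.15% of all, and the FOXO motif GTAAACA in 1.79% and 3.65%. A match is a run of letters and not a bound site, and genes with a match moved in both directions below.

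Hk1, the hexokinase that is expressed in most brain cells, moved the other way. It rose in all 3 lines, by 0.55 (SE 0.06), 0.78 (SE 0.06) and 0.64 (SE 0.04) on the log2 scale in the tdTomato, EYFP and hippocampal lines, with group means between 11.93 and 12.10 in NSCs and between 12.57 and 12.72 in astrocytes. The log2 difference Hk1 minus Hk2 within a library therefore widened by 5.28, 5.04 and 4.22, with no overlap between fates. Scaled by length (linear value per kilobase of the union of annotated exons), Hk2 made up 18.4% ± 3.0 (SD, n = 3), 16.6% ± 2.4 and 14.8% ± 2.2 of the summed Hk1 and Hk2 level in the tdTomato, EYFP and hippocampal NSCs. In astrocytes its share was 0.595% ± 0.19, 0.598% ± 0.047 and 0.923% ± 0.096. Shares per kilobase, here and below, depend on the length used, which covers all annotated exons and not the transcripts expressed. Other lengths were not tested.

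Slc2a1 encodes GLUT1, the general glucose transporter of glia and endothelium. NSC libraries held Slc2a1 at 9.97, 10.38 and 9.92 in the tdTomato line, 9.68, 9.81 and 10.00 in the EYFP line and 9.82, 9.71 and 10.07 in the hippocampal line. In astrocytes it stood at 10.64, 10.05 and 10.23 in the tdTomato line, 10.30, 10.01 and 10.50 in the EYFP line and 9.56, 9.40 and 9.79 in the hippocampal line. The astrocyte values of both traced lines all lay above those of the hippocampal line. Over differentiation, the log2 change of Slc2a1 was 0.22 (SE 0.16, adjusted p = 0.229) in the tdTomato line, 0.44 (SE 0.12, adjusted p = 0.00777) in the EYFP line and -0.28 (SE 0.11, adjusted p = 0.0409) in the hippocampal line, so that it rose in the EYFP line, fell in the hippocampal line and was not called in the tdTomato line. The change differed between origins by 0.61 (SE 0.20, adjusted p = 0.0163). The EYFP call was lost with no filter (adjusted p = 0.051), and the hippocampal call with no filter (adjusted p = 0.159), with no variance trend (0.102) and in 1 model of 6 groups (0.116). The hippocampal call was also lost without NSC replicate 1 or 3 or without astrocyte replicate 1 or 2, with adjusted p up to 0.162, and the difference between origins without hippocampal NSC replicate 3 (adjusted p = 0.0582) or astrocyte replicate 2 (adjusted p = 0.0561). With the tdTomato line alone it was 0.50 (adjusted p = 0.0808).

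**Figure D2:**
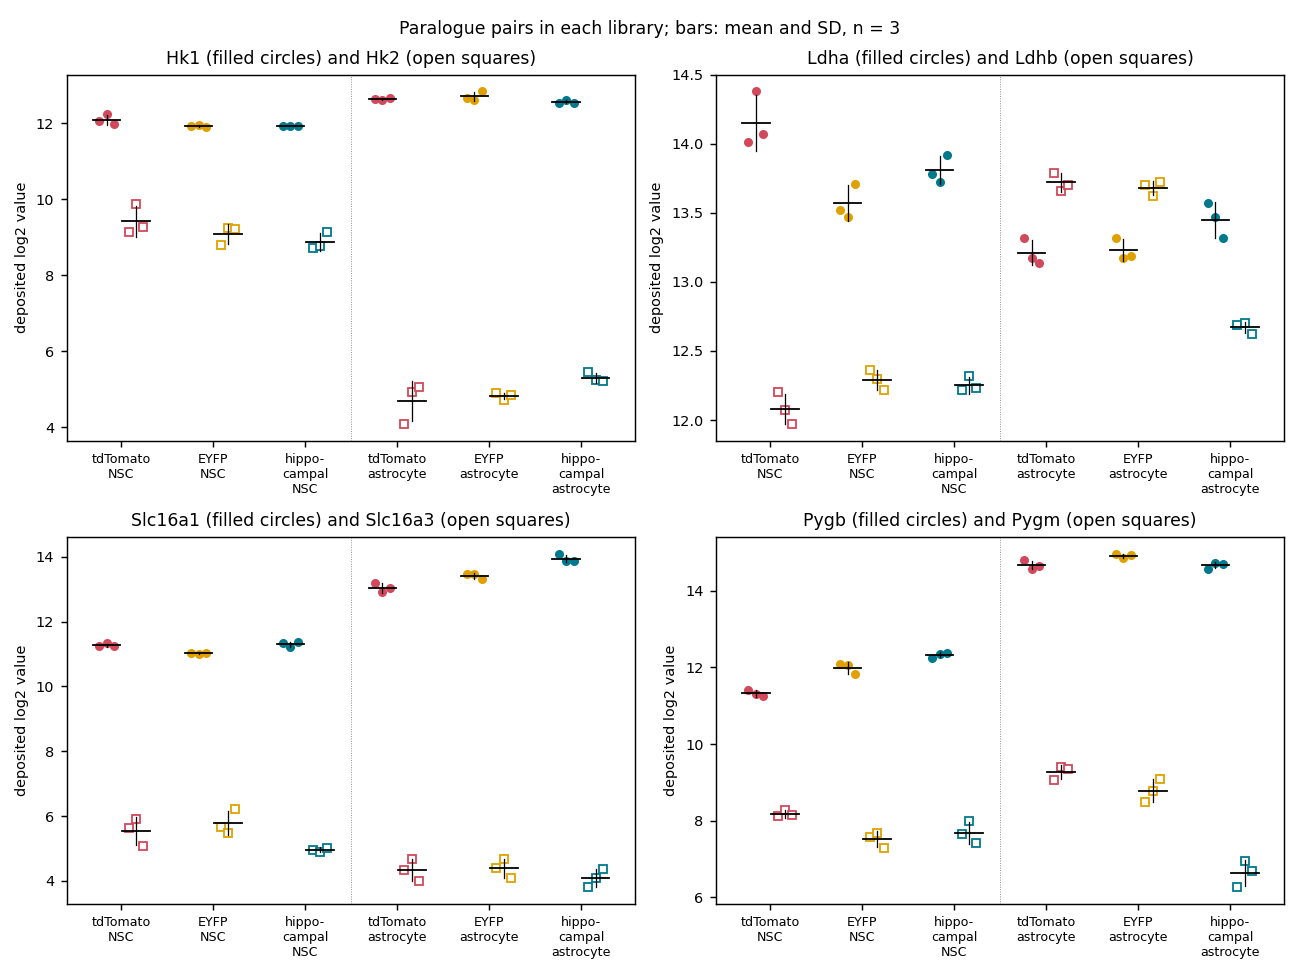
Deposited log2 value (y axis) in each library of the 6 groups (x axis) for the pairs Hk1 and Hk2, Ldha and Ldhb, Slc16a1 and Slc16a3, and Pygb and Pygm. Points are libraries, horizontal bars group means and vertical bars 1 SD (n = 3), and the heights of both genes of a panel are not scaled by length. Hk2 drops from means of 8.88 to 9.42 in NSCs to 4.69 to 5.30 in astrocytes while the means of Hk1 stay at 11.93 or above, and Pygm falls only in the hippocampal line.

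In upper glycolysis, the phosphofructokinases catalyse the committed step. Pfkp, the platelet-type subunit, rose most in the hippocampal line. In NSCs, Pfkp was found at 7.37, 7.76 and 7.48 in the tdTomato line, 6.65, 7.05 and 6.88 in the EYFP line and 6.79, 6.59 and 6.73 in the hippocampal line. After differentiation it reached 9.06, 8.66 and 8.83 in the tdTomato line, 8.51, 8.31 and 8.11 in the EYFP line and 11.21, 10.91 and 10.83 in the hippocampal line. All 3 hippocampal astrocyte libraries lay above every other library. The change was 1.31 (SE 0.13, adjusted p = 9.8e-06) in the tdTomato line, 1.45 (SE 0.13, adjusted p = 6.2e-06) in the EYFP line and 4.28 (SE 0.10, adjusted p = 4.3e-10) in the hippocampal line, 19.4-fold in the hippocampal line against 2.48-fold and 2.74-fold. The change in the traced lines was smaller than in the hippocampal line by a log2 difference of -2.89 (SE 0.17, adjusted p = 5.1e-10). In the tdTomato line Pfkp was also higher than in the EYFP line, by 0.68 (SE 0.13, adjusted p = 0.00678) in NSCs and by 0.54 (SE 0.13, adjusted p = 0.0263) in astrocytes. The astrocyte call was lost on leaving out any of 4 of the 6 libraries, with adjusted p up to 0.0923.

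Pfkm, the muscle-type subunit, rose in all lines as well. Pfkm values in NSCs were 11.99, 11.94 and 11.85 in the tdTomato line, 11.99, 11.92 and 11.85 in the EYFP line and 12.07, 12.10 and 12.04 in the hippocampal line. In astrocytes they were 13.23, 13.19 and 13.15 in the tdTomato line, 13.02, 13.00 and 13.10 in the EYFP line and 12.73, 12.86 and 12.84 in the hippocampal line. The 2 fates did not overlap, and the hippocampal astrocytes were the lowest of the 3. Its log2 change was 1.26 (SE 0.05, adjusted p = 1.7e-08) in the tdTomato line, 1.12 (SE 0.05, adjusted p = 4.6e-08) in the EYFP line and 0.74 (SE 0.04, adjusted p = 2.1e-07) in the hippocampal line. The rise was larger in the traced lines, by 0.45 (SE 0.06, adjusted p = 5.9e-06). Pfkl, the liver-type subunit, fell in the hippocampal line, by 0.35 (SE 0.07, adjusted p = 0.00099), and was not called in the tdTomato line (-0.19, SE 0.13) or the EYFP line (0.09, SE 0.07). Per kilobase, Pfkm gave 73.6% ± 4.2, 78.3% ± 2.4 and 77.4% ± 2.1 of the summed level of the 3 subunit genes in tdTomato, EYFP and hippocampal NSCs and 87.9% ± 0.32, 87.6% ± 0.20 and 83.0% ± 1.1 in astrocytes. Pfkp gave 5.89% ± 1.1 in hippocampal astrocytes and at most 1.09% ± 0.14 in the mean of any other group. The lengths behind these shares were 13401 bases for Pfkp, 6675 for Pfkl and 3340 for Pfkm.

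The bifunctional enzymes Pfkfb2 and Pfkfb3 set fructose-2,6-bisphosphate, the main activator of phosphofructokinase. Pfkfb3, the form in which kinase outweighs phosphatase activity most, had NSC values of 9.08, 9.19 and 8.85 in the tdTomato line, 9.05, 9.09 and 9.08 in the EYFP line and 9.20, 8.94 and 9.00 in the hippocampal line. Astrocytes held Pfkfb3 at 9.80, 9.59 and 9.35 in the tdTomato line, 9.74, 9.64 and 9.46 in the EYFP line and 10.18, 10.13 and 9.97 in the hippocampal line. The rise was largest in the hippocampal line. It came to 0.54 (SE 0.12, adjusted p = 0.0022) in the tdTomato line, 0.54 (SE 0.07, adjusted p = 1.1e-04) in the EYFP line and 1.05 (SE 0.08, adjusted p = 1.0e-06) in the hippocampal line, with a difference between origins of -0.51 (SE 0.13, adjusted p = 0.00377). For Pfkfb2 the NSC libraries gave 8.76, 8.53 and 8.59 in the tdTomato line, 8.98, 8.96 and 8.80 in the EYFP line and 8.91, 8.82 and 8.81 in the hippocampal line. The astrocyte libraries gave 9.68, 9.84 and 9.86 in the tdTomato line, 9.63, 9.73 and 9.73 in the EYFP line and 9.54, 9.50 and 9.61 in the hippocampal line. Here the tdTomato line rose most. The log2 change of Pfkfb2 was 1.16 (SE 0.08, adjusted p = 6.5e-07) in the tdTomato line, 0.78 (SE 0.07, adjusted p = 3.6e-06) in the EYFP line and 0.71 (SE 0.06, adjusted p = 1.8e-06) in the hippocampal line. Its change was larger in the tdTomato than in the EYFP line by 0.38 (SE 0.10, adjusted p = 0.0141), and larger in the traced lines than in the hippocampal line by 0.27 (SE 0.08, adjusted p = 0.0145). The adjusted p of that last difference was 0.576 with the EYFP line alone. Of the 75-base stretches in the annotated Pfkfb2 transcripts, 15.2% also occur in another gene.

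The aldolases split fructose-1,6-bisphosphate. Aldoc, the brain isoform and a marker of astrocytes, rose strongly from a level that already differed between the lines. NSC values of Aldoc were 13.66, 13.55 and 13.44 in the tdTomato line, 14.32, 14.28 and 14.22 in the EYFP line and 14.63, 14.71 and 14.76 in the hippocampal line. In astrocytes the 9 libraries lay at 15.81, 15.66 and 15.69 in the tdTomato line, 15.97, 15.83 and 15.93 in the EYFP line and 15.91, 15.84 and 15.72 in the hippocampal line. NSC libraries of the 3 lines did not overlap, with the tdTomato line lowest and the hippocampal line highest, while the astrocyte libraries all lay between 15.66 and 15.97. Aldoc thus changed by 2.17 (SE 0.07, adjusted p = 8.1e-09) in the tdTomato line, 1.64 (SE 0.07, adjusted p = 2.2e-08) in the EYFP line and 1.13 (SE 0.07, adjusted p = 2.2e-07) in the hippocampal line. The change was larger in the traced lines by 0.78 (SE 0.08, adjusted p = 6.0e-07), and larger in the tdTomato than in the EYFP line by 0.54 (SE 0.10, adjusted p = 0.00139). In NSCs the traced lines were lower than the hippocampal line, with a difference of -0.79 (SE 0.21, adjusted p = 0.0256), a call that was lost without tdTomato replicate 1 or any 1 hippocampal library (adjusted p up to 0.0973). Aldoa, the ubiquitous isoform, rose by 0.22 (SE 0.08, adjusted p = 0.027), 0.43 (SE 0.07, adjusted p = 0.00023) and 0.24 (SE 0.06, adjusted p = 0.00516). Its tdTomato call was lost without NSC replicate 1 or 3 or astrocyte replicate 1 (adjusted p up to 0.104), and under quantile normalization its adjusted p was 0.364 in the tdTomato and 0.433 in the hippocampal line. Per kilobase, Aldoc gave 38.6% ± 3.0, 54.6% ± 2.7 and 59.1% ± 0.89 of the aldolase level in tdTomato, EYFP and hippocampal NSCs and 70.9% ± 0.36, 73.5% ± 0.45 and 72.7% ± 0.040 in astrocytes.

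Gpi1, glucose-6-phosphate isomerase, fell in the hippocampal line. In NSCs, Gpi1 lay at 13.75, 13.99 and 13.62 in the tdTomato line, 13.62, 13.65 and 13.74 in the EYFP line and 13.69, 13.75 and 13.78 in the hippocampal line. In astrocytes, Gpi1 lay at 13.73, 13.72 and 13.69 in the tdTomato line, 13.62, 13.57 and 13.71 in the EYFP line and 13.21, 13.29 and 13.18 in the hippocampal line. The hippocampal astrocytes, at 13.29 or below, were the lowest group, and no other library was under 13.57. The log2 change was -0.07 (SE 0.08, adjusted p = 0.453) in the tdTomato line, -0.03 (SE 0.06, adjusted p = 0.601) in the EYFP line and -0.51 (SE 0.05, adjusted p = 4.8e-06) in the hippocampal line, with a difference between origins of 0.46 (SE 0.09, adjusted p = 2.8e-04). Tpi1, triosephosphate isomerase, was called in none of the 10 comparisons, with group means between 12.78 and 13.07.

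Among the later steps of glycolysis, Gapdh, Pgk1, Pgam1 and Pkm fell in every line, with log2 changes between -0.94 and -0.35. The median absolute change over all genes was 0.540, 0.485 and 0.508 in the tdTomato, EYFP and hippocampal lines. Gapdh, which yields the NADH that lactate dehydrogenase consumes, is often used as a reference gene. NSC libraries held Gapdh at 13.73, 14.00 and 13.72 in the tdTomato line, 13.55, 13.59 and 13.66 in the EYFP line and 13.66, 13.72 and 13.85 in the hippocampal line. Astrocyte libraries held it at 13.27, 13.37 and 13.24 in the tdTomato line, 13.15, 13.09 and 13.28 in the EYFP line and 13.04, 12.81 and 12.82 in the hippocampal line. Fates did not overlap in any line. Gapdh fell in every line, with changes of -0.53 (SE 0.08, adjusted p = 1.6e-04) in the tdTomato line, -0.42 (SE 0.06, adjusted p = 1.2e-04) in the EYFP line and -0.86 (SE 0.07, adjusted p = 2.6e-06) in the hippocampal line, and the fall was smaller in the traced lines by 0.38 (SE 0.10, adjusted p = 0.00347). Pgam1, phosphoglycerate mutase, lay in NSCs at 13.75, 14.01 and 13.67 in the tdTomato line, 13.56, 13.53 and 13.77 in the EYFP line and 13.59, 13.54 and 13.76 in the hippocampal line. In astrocytes its values were 13.32, 13.37 and 13.28 in the tdTomato line, 13.02, 13.11 and 13.10 in the EYFP line and 12.76, 12.66 and 12.66 in the hippocampal line. The hippocampal astrocytes were again the lowest group. The log2 change of Pgam1 was -0.49 (SE 0.08, adjusted p = 3.9e-04) in the tdTomato line, -0.54 (SE 0.07, adjusted p = 5.8e-05) in the EYFP line and -0.94 (SE 0.06, adjusted p = 3.7e-07) in the hippocampal line, with a difference between traced and hippocampal lines of 0.42 (SE 0.10, adjusted p = 0.0017).

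Pgk1, phosphoglycerate kinase, fell by 0.83 (SE 0.08), 0.62 (SE 0.07) and 0.80 (SE 0.09) in the tdTomato, EYFP and hippocampal lines, and Pkm, pyruvate kinase, by 0.56 (SE 0.08), 0.35 (SE 0.07) and 0.52 (SE 0.07). The gene-level values of Pkm do not separate its M1 and M2 splice forms. Gene families with processed copies make these values less certain, since 52.8% of the 75-base stretches of Pgk1, 34.9% of Pgam1, 22.6% of Gapdh and 17.8% of Pkm occur in at least 1 other annotated gene. Eno2, the neuronal enolase, moved in the opposite direction to these genes. In NSCs, Eno2 was low, at 5.29, 5.41 and 5.05 in the tdTomato line, 5.59, 6.03 and 5.23 in the EYFP line and 5.18, 5.30 and 5.16 in the hippocampal line. In astrocytes it was 5.91, 5.96 and 5.93 in the tdTomato line, 6.32, 6.22 and 6.37 in the EYFP line and 7.18, 7.28 and 7.20 in the hippocampal line. In each line every astrocyte library lay above every NSC library. It rose by 0.68 (SE 0.14, adjusted p = 0.00149) in the tdTomato line, 0.69 (SE 0.19, adjusted p = 0.00912) in the EYFP line and 2.01 (SE 0.12, adjusted p = 1.5e-07) in the hippocampal line. The part of the neuron markers, of which 3 of 5 rose, in this was not tested. The rise was smaller in the traced lines, by a log2 difference of -1.32 (SE 0.19, adjusted p = 1.8e-05). Per kilobase, Eno2 reached 1.34% ± 0.11 of the summed Eno1 and Eno2 level in hippocampal astrocytes and 0.139% to 0.422% in the means of the other groups.

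Eno1, the main enolase, has to be read together with Eno1b, annotated as a retrotransposed copy. Of the 75-base stretches of Eno1b transcripts, 69.6% also occur in Eno1, and 22.6% of those of Eno1 occur in Eno1b. Eno1 lay in NSCs at 14.83, 15.10 and 14.89 in the tdTomato line, 14.36, 14.19 and 14.67 in the EYFP line and 14.09, 14.04 and 14.25 in the hippocampal line. In astrocytes Eno1 lay at 14.59, 14.53 and 14.40 in the tdTomato line, 14.37, 14.31 and 14.44 in the EYFP line and 13.69, 13.68 and 13.48 in the hippocampal line. The log2 change of Eno1 was -0.44 (SE 0.08, adjusted p = 8.1e-04) in the tdTomato line, -0.03 (SE 0.11, adjusted p = 0.809) in the EYFP line and -0.51 (SE 0.07, adjusted p = 1.2e-04) in the hippocampal line. For Eno1b the NSC values were 5.24, 6.97 and 6.01 in the tdTomato line, 6.12, 5.11 and 5.26 in the EYFP line and 12.01, 12.08 and 12.24 in the hippocampal line. The hippocampal line stood far above both traced lines. In astrocytes Eno1b was at 5.85, 5.30 and 5.21 in the tdTomato line, 5.66, 6.38 and 5.96 in the EYFP line and 11.63, 11.56 and 11.45 in the hippocampal line. Its log2 change was -0.62 (SE 0.38, adjusted p = 0.159) in the tdTomato line, 0.51 (SE 0.28, adjusted p = 0.122) in the EYFP line and -0.56 (SE 0.07, adjusted p = 2.9e-05) in the hippocampal line, and the hippocampal call was lost in 1 model of 6 groups (adjusted p = 0.126). Eno1b was lower in the traced lines, with log2 differences of -6.33 (SE 0.37, adjusted p = 1.8e-06) in NSCs and -5.82 (SE 0.22, adjusted p = 2.2e-08) in astrocytes, the largest line difference among the members. In the linear sum of both genes, Eno1b took 18.7% to 20.4% in the hippocampal libraries and 0.129% to 0.407% in the traced ones. How the authors' counting divided reads between the copies could not be checked from these values. The log2 of the sum was 14.94 ± 0.14 (SD, n = 3), 14.41 ± 0.24 and 14.45 ± 0.11 in tdTomato, EYFP and hippocampal NSCs and 14.51 ± 0.10, 14.38 ± 0.06 and 13.93 ± 0.11 in astrocytes, so that the hippocampal astrocytes were the lowest group after summing as before it.

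**Figure D3:**
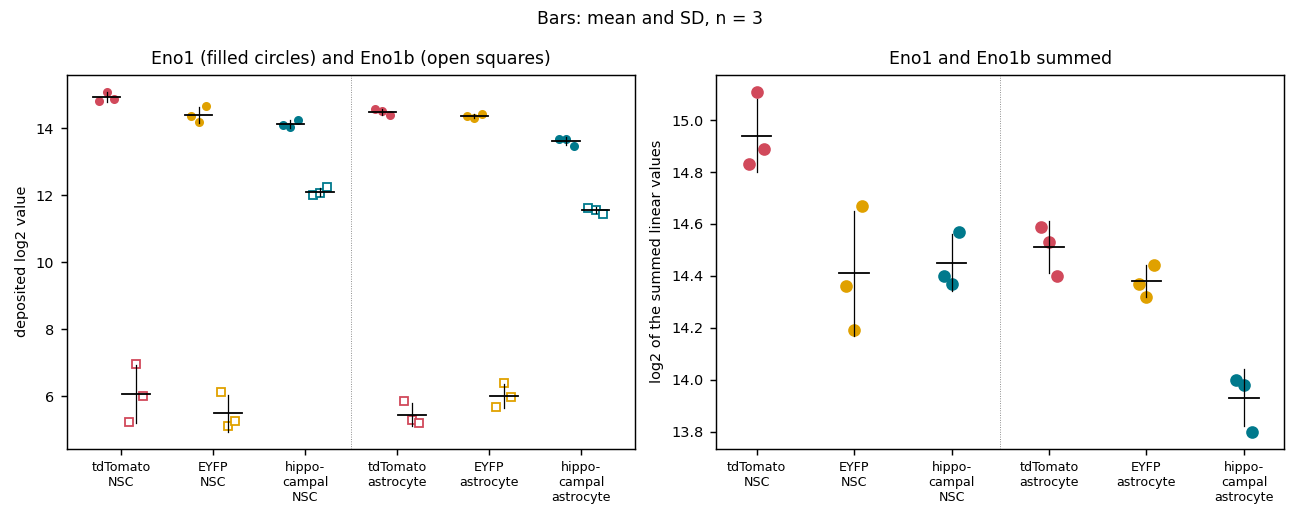
Left, deposited log2 values (y axis) of Eno1 and of its copy Eno1b in each library of the 6 groups (x axis), and right, the log2 of their summed linear values, with points for libraries, horizontal bars for means and vertical bars for 1 SD (n = 3). Eno1b stands at 11.45 to 12.24 in the hippocampal libraries and at 5.11 to 6.97 in the traced ones, and the hippocampal astrocytes have the lowest sum, 13.93.

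Of the lactate dehydrogenase genes, Ldha fell and Ldhb rose in every line. Lactate dehydrogenase is a tetramer of A and B subunits, of which the A form is known to favour lactate production and the B form lactate use. Ldha lay in NSCs at 14.01, 14.38 and 14.07 in the tdTomato line, 13.52, 13.47 and 13.71 in the EYFP line and 13.78, 13.72 and 13.92 in the hippocampal line. Astrocytes held Ldha at 13.32, 13.17 and 13.14 in the tdTomato line, 13.32, 13.17 and 13.19 in the EYFP line and 13.57, 13.47 and 13.32 in the hippocampal line. Fates were apart in every line, and tdTomato NSCs stood above both other NSC groups. Ldha fell, with log2 changes of -0.94 (SE 0.09, adjusted p = 1.2e-05) in the tdTomato line, -0.34 (SE 0.07, adjusted p = 0.00186) in the EYFP line and -0.35 (SE 0.07, adjusted p = 0.00148) in the hippocampal line. The fall was larger in the tdTomato than in the EYFP line, by a difference of -0.60 (SE 0.13, adjusted p = 0.00553). The difference between traced and hippocampal lines, -0.29 (SE 0.11, adjusted p = 0.0447), was lost on leaving out any of 10 of the 18 libraries (adjusted p up to 0.135), and with the EYFP line alone it was 0.01 (adjusted p = 0.952).

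Ldhb, on chromosome 6, held NSC values of 12.20, 12.07 and 11.97 in the tdTomato line, 12.36, 12.30 and 12.22 in the EYFP line and 12.22, 12.32 and 12.23 in the hippocampal line. In astrocytes it stood at 13.79, 13.66 and 13.70 in the tdTomato line, 13.70, 13.62 and 13.72 in the EYFP line and 12.69, 12.70 and 12.62 in the hippocampal line. NSC libraries of the 3 lines all lay between 11.97 and 12.36, whereas the traced astrocytes held 13.62 to 13.79 and the hippocampal astrocytes 12.62 to 12.70. The rise was 1.64 (SE 0.06, adjusted p = 1.9e-08) in the tdTomato line, 1.39 (SE 0.05, adjusted p = 1.5e-08) in the EYFP line and 0.41 (SE 0.04, adjusted p = 1.3e-05) in the hippocampal line. It was larger in the traced lines by 1.10 (SE 0.07, adjusted p = 1.0e-09). The change was larger in the tdTomato than in the EYFP line by 0.25 (SE 0.08, adjusted p = 0.0439), a call lost on leaving out any of 12 of the 18 libraries (adjusted p up to 0.132). Within libraries the log2 difference Ldha minus Ldhb fell by 2.58, 1.73 and 0.77 in the tdTomato, EYFP and hippocampal lines. Per kilobase, Ldhb rose from 33.4% ± 3.9, 46.6% ± 3.3 and 41.8% ± 2.5 of the summed level to 75% ± 0.58, 74.3% ± 1.1 and 55.0% ± 1.6. Before scaling by length (3310 bases for Ldha and 1570 for Ldhb), mean Ldha minus Ldhb in astrocytes was -0.51, -0.45 and 0.79. Unscaled Ldha thus stayed above Ldhb in the hippocampal astrocytes. The first Ldha promoter window is shown beside that of Hk2. It has 7 matches to the HIF core, where each CACGTG counts once per strand, so the separate capital stretches are fewer.

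Ldha (chr7:46845554-46845853, plus strand): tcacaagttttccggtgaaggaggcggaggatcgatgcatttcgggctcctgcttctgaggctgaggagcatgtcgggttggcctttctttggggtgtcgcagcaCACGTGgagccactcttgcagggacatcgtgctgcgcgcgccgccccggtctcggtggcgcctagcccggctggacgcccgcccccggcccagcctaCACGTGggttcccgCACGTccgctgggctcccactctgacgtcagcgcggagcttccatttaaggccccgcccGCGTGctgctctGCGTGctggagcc

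Lactate leaves through the monocarboxylate transporters. Slc16a1 encodes MCT1, the widely expressed transporter of lactate, pyruvate and ketone bodies. NSC values of Slc16a1 were 11.25, 11.33 and 11.24 in the tdTomato line, 11.03, 11.01 and 11.04 in the EYFP line and 11.33, 11.21 and 11.36 in the hippocampal line. In astrocytes they rose to 13.18, 12.91 and 13.03 in the tdTomato line, 13.46, 13.47 and 13.31 in the EYFP line and 14.09, 13.88 and 13.88 in the hippocampal line. The order in astrocytes was hippocampal, EYFP and tdTomato, without overlap. The log2 change was 1.76 (SE 0.07, adjusted p = 1.8e-08) in the tdTomato line, 2.38 (SE 0.05, adjusted p = 5.7e-10) in the EYFP line and 2.65 (SE 0.06, adjusted p = 5.0e-10) in the hippocampal line. The rise was smaller in the traced lines, with a difference of -0.58 (SE 0.08, adjusted p = 2.1e-05), and smaller in the tdTomato than in the EYFP line, with a difference of -0.62 (SE 0.10, adjusted p = 0.00046). Slc16a3, or MCT4, the low-affinity exporter of strongly glycolytic cells, went down from a low level. It fell by 1.20 (SE 0.25), 1.41 (SE 0.23) and 0.87 (SE 0.19), with group means of 4.96 to 5.79 in NSCs and 4.08 to 4.38 in astrocytes. Slc16a1 minus Slc16a3 widened by 2.96, 3.79 and 3.52.

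At the pyruvate dehydrogenase gate, the PDK kinases split into a pair that rose and 1 that followed the line. Pdk4, known as a starvation-responsive kinase, lay in NSCs at 5.10, 5.15 and 4.94 in the tdTomato line, 6.40, 6.44 and 6.24 in the EYFP line and 8.14, 8.37 and 7.90 in the hippocampal line. In astrocytes its values were 7.18, 6.88 and 7.32 in the tdTomato line, 8.73, 9.13 and 9.18 in the EYFP line and 10.51, 10.54 and 10.55 in the hippocampal line. The 3 lines were ordered tdTomato, EYFP and hippocampal in both fates, and no pair of groups overlapped within a fate. Pdk4 rose by 2.06 (SE 0.14, adjusted p = 9.6e-07) in the tdTomato line, 2.65 (SE 0.13, adjusted p = 6.8e-08) in the EYFP line and 2.40 (SE 0.10, adjusted p = 1.7e-08) in the hippocampal line. Traced lines were lower than the hippocampal line, with differences of -2.43 (SE 0.38, adjusted p = 0.00148) in NSCs and -2.47 (SE 0.52, adjusted p = 0.00251) in astrocytes. The tdTomato line was in turn lower than the EYFP line, with differences of -1.29 (SE 0.12, adjusted p = 0.00021) and -1.88 (SE 0.15, adjusted p = 0.00011). The difference of its change between origins was not called (-0.04, 95% interval -0.38 to 0.31). The change in the tdTomato line was smaller than in the EYFP line, with a difference of -0.59 (SE 0.19, adjusted p = 0.047), a call lost on leaving out any of 14 of the 18 libraries (adjusted p up to 0.125).

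Pdk2, the kinase most widely expressed across tissues, had NSC values of 9.75, 9.64 and 9.44 in the tdTomato line, 10.00, 9.98 and 9.87 in the EYFP line and 9.82, 10.03 and 9.90 in the hippocampal line. It reached, in astrocytes, 11.99, 11.92 and 12.03 in the tdTomato line, 11.96, 11.84 and 12.11 in the EYFP line and 11.46, 11.60 and 11.62 in the hippocampal line. Fates were far apart in every line, and hippocampal astrocytes lay below both traced groups. The log2 change of Pdk2 was 2.37 (SE 0.07, adjusted p = 6.2e-09) in the tdTomato line, 2.02 (SE 0.07, adjusted p = 7.9e-09) in the EYFP line and 1.65 (SE 0.06, adjusted p = 8.7e-09) in the hippocampal line. It was larger in the traced lines by 0.55 (SE 0.10, adjusted p = 1.6e-04). The tdTomato line exceeded the EYFP line by 0.35 (SE 0.11, adjusted p = 0.0471), lost on leaving out any of 12 of the 18 libraries (adjusted p up to 0.137). Pdk1, a classical HIF target, stood in NSCs at 10.19, 10.71 and 9.67 in the tdTomato line, 9.73, 9.83 and 10.11 in the EYFP line and 9.98, 9.99 and 10.31 in the hippocampal line. Its astrocyte values were 10.28, 10.25 and 10.15 in the tdTomato line, 10.17, 10.34 and 10.21 in the EYFP line and 9.52, 9.59 and 9.61 in the hippocampal line. The tdTomato NSCs spanned the whole range of the other NSC groups. Its log2 change was 0.03 (SE 0.21, adjusted p = 0.885) in the tdTomato line, 0.35 (SE 0.09, adjusted p = 0.00752) in the EYFP line and -0.52 (SE 0.08, adjusted p = 2.8e-04) in the hippocampal line, and the difference between origins was 0.71 (SE 0.21, adjusted p = 0.00962), with an adjusted p of 0.0691 for the tdTomato line alone. Per kilobase, Pdk1 went from 37.1% ± 7.1, 26.7% ± 3.7 and 26.8% ± 3.5 of the summed level of the 3 kinases to 10.5% ± 0.74, 9.92% ± 1.2 and 6.64% ± 0.11, and Pdk4 held 15.3% ± 2.3 in hippocampal NSCs and 28.6% ± 0.90 in hippocampal astrocytes.

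Pdha1 encodes the X-linked catalytic subunit that these kinases phosphorylate. Pdha1 values in NSCs were 12.65, 12.60 and 12.63 in the tdTomato line, 12.83, 12.82 and 12.79 in the EYFP line and 12.89, 12.92 and 12.91 in the hippocampal line. In astrocytes Pdha1 lay at 13.03, 13.05 and 13.07 in the tdTomato line, 12.93, 13.02 and 13.00 in the EYFP line and 12.64, 12.57 and 12.53 in the hippocampal line. The hippocampal line passed from the highest NSC group to the lowest astrocyte group, with no overlap in either fate. The log2 change was 0.43 (SE 0.04, adjusted p = 5.6e-06) in the tdTomato line, 0.17 (SE 0.05, adjusted p = 0.00706) in the EYFP line and -0.33 (SE 0.04, adjusted p = 5.3e-05) in the hippocampal line. Traced and hippocampal lines differed in it by 0.63 (SE 0.04, adjusted p = 5.7e-09), and the traced lines among themselves by 0.26 (SE 0.05, adjusted p = 0.00326).

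**Figure D4:**
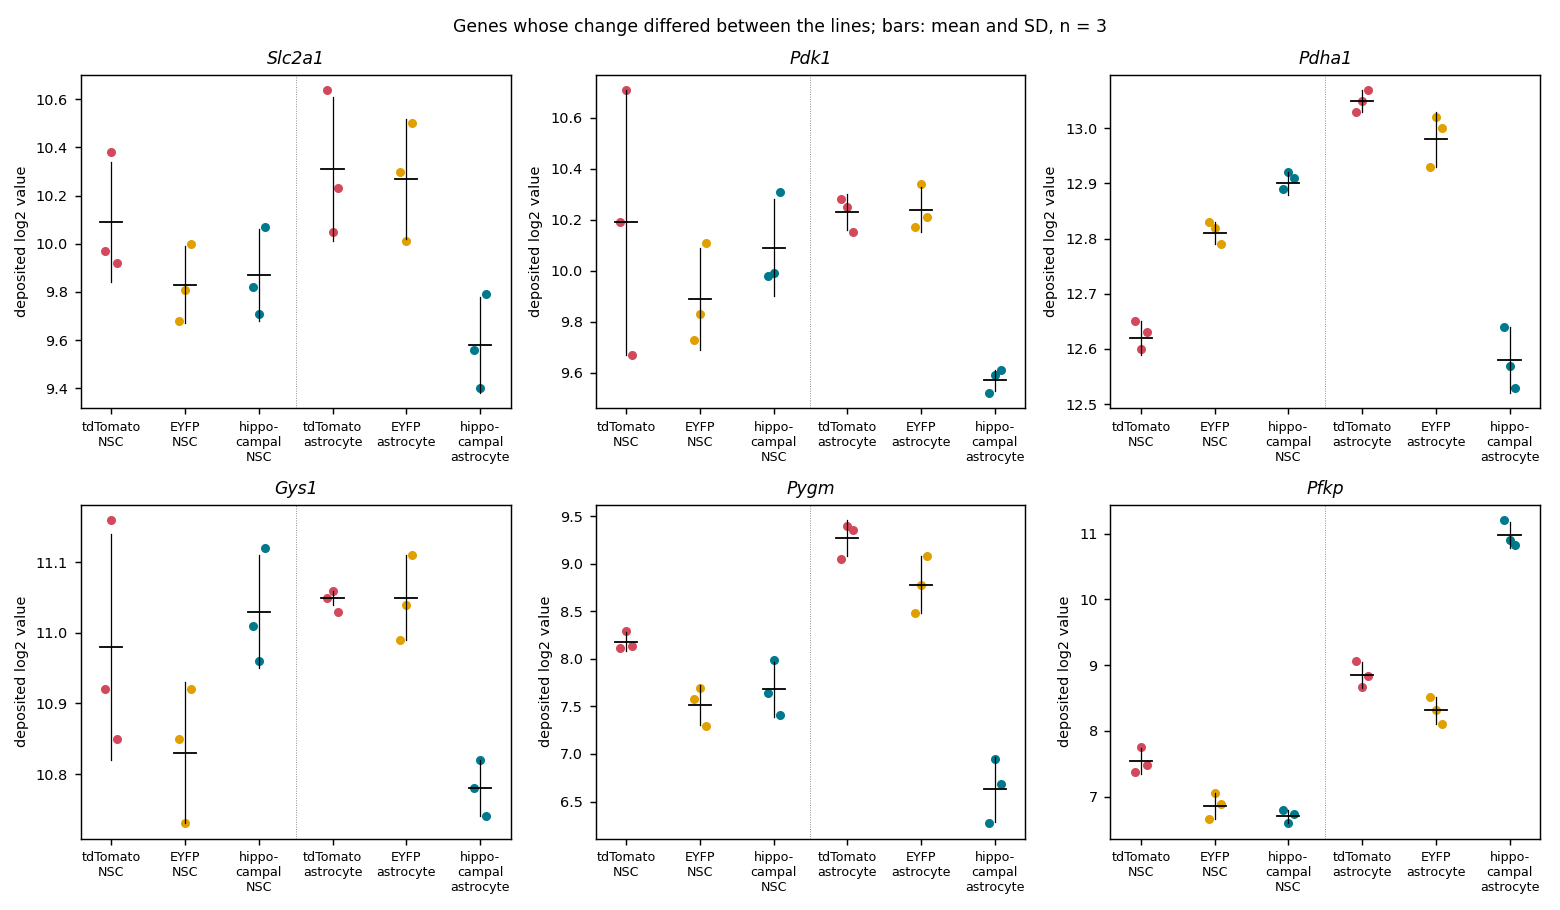
Deposited log2 values (y axis, a separate range in each panel) of Slc2a1, Pdk1, Pdha1, Gys1, Pygm and Pfkp in each library of the 6 groups (x axis), with horizontal bars for means and vertical bars for 1 SD (n = 3). The hippocampal astrocytes have the lowest mean of the 3 astrocyte groups in the first 5 panels, for example 6.63 for Pygm, and the highest, 10.98, for Pfkp.

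Glycogen is made from glucose-1-phosphate and broken down by phosphorylases. Pygb, the brain phosphorylase, is on chromosome 2 from 150786735 to 150831758. In NSCs, Pygb values were 11.42, 11.31 and 11.25 in the tdTomato line, 12.09, 12.06 and 11.82 in the EYFP line and 12.25, 12.35 and 12.38 in the hippocampal line. After differentiation they were 14.79, 14.57 and 14.64 in the tdTomato line, 14.95, 14.86 and 14.93 in the EYFP line and 14.58, 14.72 and 14.70 in the hippocampal line. Fates were far apart in every line. Pygb rose, with log2 changes of 3.34 (SE 0.07, adjusted p = 4.6e-10) in the tdTomato line, 2.92 (SE 0.07, adjusted p = 1.2e-09) in the EYFP line and 2.34 (SE 0.05, adjusted p = 3.7e-10) in the hippocampal line, which are 10.1-fold, 7.59-fold and 5.06-fold. The rise was larger in the traced lines by 0.79 (SE 0.09, adjusted p = 1.0e-06), and in the tdTomato than in the EYFP line by 0.42 (SE 0.10, adjusted p = 0.0115).

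Pygm, the muscle phosphorylase that astrocytes also express, lay in NSCs at 8.11, 8.29 and 8.14 in the tdTomato line, 7.58, 7.69 and 7.29 in the EYFP line and 7.64, 7.99 and 7.41 in the hippocampal line. In astrocytes Pygm lay at 9.05, 9.40 and 9.36 in the tdTomato line, 8.48, 8.78 and 9.08 in the EYFP line and 6.27, 6.95 and 6.68 in the hippocampal line. All 6 traced astrocyte libraries were above every NSC library, and all 3 hippocampal astrocyte libraries were below every NSC library. The log2 change was 1.09 (SE 0.10, adjusted p = 6.2e-06) in the tdTomato line, 1.26 (SE 0.15, adjusted p = 4.8e-05) in the EYFP line and -1.05 (SE 0.19, adjusted p = 6.2e-04) in the hippocampal line, a rise of 2.13-fold and 2.39-fold against a fall of 2.07-fold. The difference between origins was 2.22 (SE 0.22, adjusted p = 2.6e-07). Per kilobase, Pygm made up 14.4% ± 1.2, 6.31% ± 0.35 and 5.69% ± 1.1 of the phosphorylase level in tdTomato, EYFP and hippocampal NSCs, and 3.47% ± 0.67, 2.11% ± 0.43 and 0.574% ± 0.11 in astrocytes. Pygl, the liver form, lay near the filter, with group means of 3.21 to 3.64 in NSCs and 2.52 to 2.87 in astrocytes. It fell by 0.73 (SE 0.29, adjusted p = 0.0445) in the EYFP line and by 0.85 (SE 0.25, adjusted p = 0.0108) in the hippocampal line and was not tested in the tdTomato line. The EYFP call was lost on leaving out any of 4 of the 6 libraries (adjusted p up to 0.164).

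The promoter windows of both phosphorylases are shown because the genes moved apart in the hippocampal line, and each holds 2 matches to the HIF core.

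Pygb (chr2:150786546-150786845, plus strand): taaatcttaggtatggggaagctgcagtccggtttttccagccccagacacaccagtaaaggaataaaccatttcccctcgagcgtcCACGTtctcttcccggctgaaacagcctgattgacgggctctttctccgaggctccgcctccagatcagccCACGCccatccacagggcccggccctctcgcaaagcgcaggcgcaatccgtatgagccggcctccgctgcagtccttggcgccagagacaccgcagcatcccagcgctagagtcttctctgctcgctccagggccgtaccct

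Pygm (chr19:6384158-6384457, plus strand): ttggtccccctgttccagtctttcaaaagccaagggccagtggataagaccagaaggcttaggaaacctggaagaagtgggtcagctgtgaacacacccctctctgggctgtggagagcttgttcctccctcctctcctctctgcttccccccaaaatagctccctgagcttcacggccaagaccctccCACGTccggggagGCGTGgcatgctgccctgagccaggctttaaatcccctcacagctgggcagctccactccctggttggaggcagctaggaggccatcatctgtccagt

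Ppp1r3c encodes PTG, which brings protein phosphatase 1 to glycogen and favours its synthesis, and lay in NSCs at 10.20, 9.94 and 9.59 in the tdTomato line, 10.64, 10.51 and 10.58 in the EYFP line and 10.38, 10.40 and 10.68 in the hippocampal line. Its astrocyte values were 12.59, 12.50 and 12.58 in the tdTomato line, 12.31, 12.27 and 12.47 in the EYFP line and 12.06, 12.07 and 12.10 in the hippocampal line. Every line rose, the tdTomato line most. The log2 change was 2.65 (SE 0.12, adjusted p = 7.2e-08) in the tdTomato line, 1.78 (SE 0.06, adjusted p = 7.9e-09) in the EYFP line and 1.59 (SE 0.07, adjusted p = 2.7e-08) in the hippocampal line. The tdTomato line exceeded the EYFP line by 0.87 (SE 0.15, adjusted p = 0.00119), and the traced lines the hippocampal line by 0.62 (SE 0.13, adjusted p = 8.5e-04). With the EYFP line alone against the hippocampal line that last difference had an adjusted p of 0.359. Gys1, the glycogen synthase outside the liver, gave NSC values of 10.92, 11.16 and 10.85 in the tdTomato line, 10.85, 10.73 and 10.92 in the EYFP line and 11.01, 10.96 and 11.12 in the hippocampal line. In astrocytes it gave 11.05, 11.06 and 11.03 in the tdTomato line, 10.99, 11.04 and 11.11 in the EYFP line and 10.78, 10.82 and 10.74 in the hippocampal line. The hippocampal astrocytes stood below all other astrocyte libraries. Gys1 changed by 0.07 (SE 0.07, adjusted p = 0.361) in the tdTomato line, 0.21 (SE 0.06, adjusted p = 0.00789) in the EYFP line and -0.25 (SE 0.05, adjusted p = 0.0011) in the hippocampal line, and origins differed by 0.40 (SE 0.08, adjusted p = 7.0e-04). Gbe1, the branching enzyme, was called in no comparison, with group means between 9.18 and 9.50.

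Phosphoglucomutase activity links glucose-6-phosphate with glucose-1-phosphate. The mouse symbols Pgm1 and Pgm2 have been exchanged between annotations, so both genes are given here by ID. The part of the Pgm2 product in this step was not tested. Pgm1 (ENSMUSG00000025791, chromosome 4) lay in NSCs at 11.27, 11.54 and 11.06 in the tdTomato line, 11.07, 11.14 and 11.08 in the EYFP line and 11.25, 11.21 and 11.38 in the hippocampal line. In astrocytes it lay at 11.24, 11.17 and 11.19 in the tdTomato line, 11.22, 11.10 and 11.23 in the EYFP line and 10.75, 10.89 and 10.77 in the hippocampal line. The hippocampal astrocytes stood below every other library. Its log2 change was -0.09 (SE 0.10, adjusted p = 0.436) in the tdTomato line, 0.09 (SE 0.05, adjusted p = 0.127) in the EYFP line and -0.47 (SE 0.06, adjusted p = 2.9e-05) in the hippocampal line, with a difference between origins of 0.47 (SE 0.10, adjusted p = 9.3e-04). Pgm2 (ENSMUSG00000029171, chromosome 5) had NSC values of 8.58, 8.58 and 8.58 in the tdTomato line, 8.63, 8.59 and 8.61 in the EYFP line and 8.68, 8.65 and 8.78 in the hippocampal line. In astrocytes these were 9.00, 8.97 and 9.02 in the tdTomato line, 9.19, 9.11 and 8.98 in the EYFP line and 9.95, 9.73 and 9.68 in the hippocampal line. Here the hippocampal astrocytes were the highest. Pgm2 rose by 0.42 (SE 0.05, adjusted p = 7.0e-05) in the tdTomato line, 0.48 (SE 0.07, adjusted p = 1.6e-04) in the EYFP line and 1.08 (SE 0.08, adjusted p = 6.5e-07) in the hippocampal line, less in the traced lines by a difference of -0.63 (SE 0.08, adjusted p = 5.2e-06). Ugp2, which makes the UDP-glucose that glycogen synthase uses, lay in NSCs at 11.66, 11.58 and 11.56 in the tdTomato line, 11.70, 11.65 and 11.67 in the EYFP line and 11.92, 11.90 and 11.94 in the hippocampal line. Its astrocyte values were 12.46, 12.53 and 12.51 in the tdTomato line, 12.34, 12.51 and 12.38 in the EYFP line and 12.58, 12.46 and 12.50 in the hippocampal line. NSC values were highest in the hippocampal line, and the astrocyte values of the 3 lines overlapped. The log2 change of Ugp2 was 0.90 (SE 0.04, adjusted p = 7.8e-08) in the tdTomato line, 0.74 (SE 0.05, adjusted p = 9.6e-07) in the EYFP line and 0.60 (SE 0.04, adjusted p = 7.8e-07) in the hippocampal line, larger in the traced lines by 0.22 (SE 0.06, adjusted p = 0.00336). With the EYFP line alone the adjusted p of this difference was 0.0898.

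The HIF axis did not move as one. Hif1a encodes the oxygen-regulated subunit, whose activity is set mainly by protein stability, so its RNA is no measure of it. Hif1a lay in NSCs at 12.65, 12.71 and 12.72 in the tdTomato line, 12.35, 12.42 and 12.25 in the EYFP line and 12.50, 12.47 and 12.48 in the hippocampal line. In astrocytes Hif1a lay at 12.75, 12.83 and 12.79 in the tdTomato line, 12.30, 12.57 and 12.35 in the EYFP line and 12.29, 12.10 and 12.10 in the hippocampal line. The tdTomato line was the highest in both fates. Its log2 change was 0.10 (SE 0.04, adjusted p = 0.0539) in the tdTomato line, 0.07 (SE 0.07, adjusted p = 0.411) in the EYFP line and -0.32 (SE 0.05, adjusted p = 3.9e-04) in the hippocampal line, and the difference between origins was 0.41 (SE 0.08, adjusted p = 3.4e-04). Vegfa, the angiogenic factor, had NSC values of 11.31, 11.71 and 10.70 in the tdTomato line, 11.26, 11.83 and 11.34 in the EYFP line and 11.48, 11.88 and 11.98 in the hippocampal line. In astrocytes Vegfa stood at 10.08, 10.32 and 10.16 in the tdTomato line, 9.71, 9.86 and 9.72 in the EYFP line and 9.54, 9.55 and 9.34 in the hippocampal line. Fates did not overlap. Vegfa fell, with log2 changes of -1.05 (SE 0.21, adjusted p = 0.00114) in the tdTomato line, -1.71 (SE 0.13, adjusted p = 1.5e-06) in the EYFP line and -2.30 (SE 0.11, adjusted p = 4.9e-08) in the hippocampal line, and the fall was smaller in the traced lines by 0.92 (SE 0.23, adjusted p = 0.00376). With the EYFP line alone the adjusted p of that difference was 0.0985. Bnip3, a mitophagy receptor, was called in no comparison, with changes of -0.38 (SE 0.18), 0.16 (SE 0.09) and -0.20 (SE 0.12).

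Between the pooled traced lines and the hippocampal line, 7 members were called in NSCs and 28 in astrocytes. In NSCs 1 of 39 was higher in the traced lines and 6 were lower, with 19.4% of all genes called (10.6% higher and 8.81% lower). The 1 was Slc16a3, at 0.71 (SE 0.22, adjusted p = 0.0474), and the 6 were Pfkm, Aldoc, Eno1b, Pdk4, Ugp2 and Pygb. The calls of Slc16a3, Pfkm, Aldoc and Pygb were lost on leaving out certain single libraries, with adjusted p up to 0.149, and the count fell to 4 without tdTomato replicate 1 or 2 and to 3 without any 1 hippocampal library or with no filter. It rose to 11 in 1 model of 6 groups, and, in alternatives chosen after seeing the data, to 19 with the tdTomato line alone and 13 with the EYFP line alone against the hippocampal line, where the astrocyte count was 28 for each. In astrocytes 19 of 38 were higher in the traced lines and 9 were lower, with 52% of all genes called (24.1% and 27.9%). The median difference of the members was 0.22, beside -0.012 over all genes. The 19 were Slc2a1, Gpi1, Pfkl, Pfkm, Pfkfb2, Gapdh, Pgam1, Eno1, Pkm, Ldhb, Pdk1, Pdk2, Pdha1, Pgm1, Gys1, Pygm, Ppp1r3c, Hif1a and Vegfa, with Pygm at 2.39 (SE 0.21) and Ldhb at 1.03 (SE 0.04) the largest. The 9 were Hk2, Pfkp, Pfkfb3, Eno1b, Eno2, Ldha, Slc16a1, Pdk4 and Pgm2. For Hk2, -0.55 (SE 0.20, adjusted p = 0.0447), the call was lost on leaving out any 1 EYFP or hippocampal library (adjusted p up to 0.15). The calls of Pfkfb2 and Ldha were lost without hippocampal replicate 1 (adjusted p = 0.0572 and 0.0603), and that of Pfkfb2 also without replicate 2 (0.0773). Against the hippocampal line, Slc16a3 in NSCs (adjusted p = 0.0507) and Hk2 in astrocytes (adjusted p = 0.0699) were not called with the tdTomato line alone, nor Pfkfb2 in astrocytes (adjusted p = 0.0688) with the EYFP line alone.

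**Figure D5:**
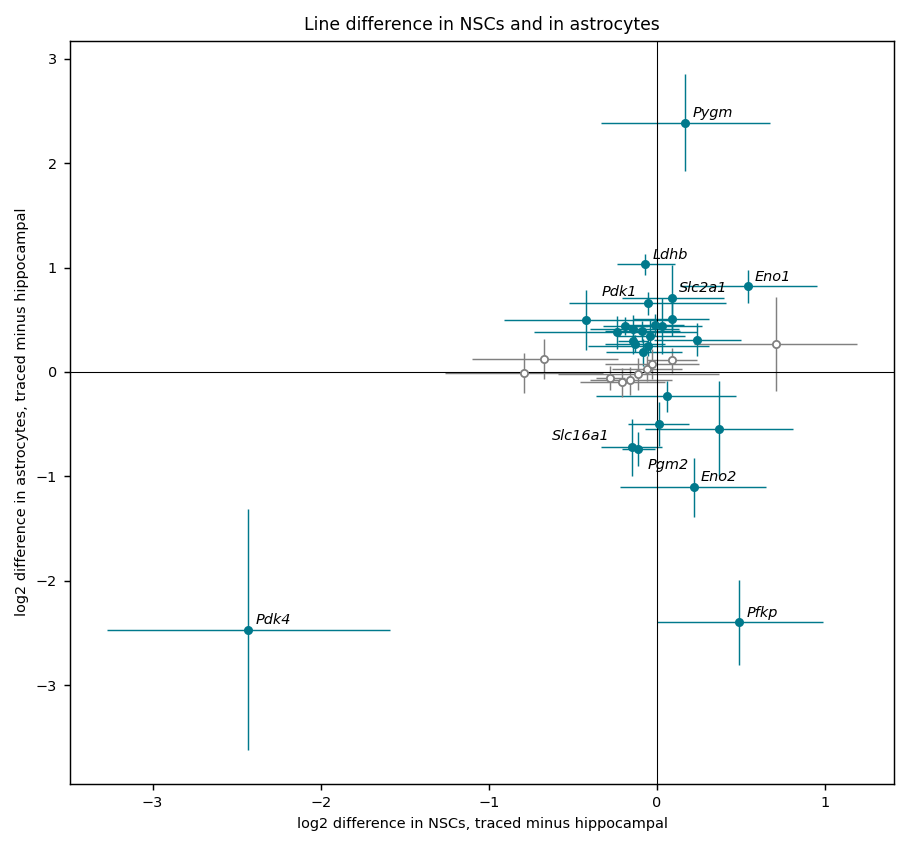
Log2 difference between traced and hippocampal lines in NSCs (x axis) and in astrocytes (y axis) for 37 members, with limma's 95% confidence intervals as bars and filled points where the astrocyte difference was called (6 traced and 3 hippocampal libraries per fate). Pygl was not tested in astrocytes and Eno1b, at -6.33 and -5.82, lies outside the range, most points spread more along the vertical than the horizontal axis, and Pdk4 stands apart at -2.43 and -2.47.

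The change itself differed between traced and hippocampal lines for 26 of the 39 members, 19 with a higher and 7 with a lower change in the traced lines, where 46.2% of all genes were called (20.3% and 25.9%). The median difference of the change was 0.28 for the members and -0.026 for all genes. These comparisons share the libraries of the per-line changes and are no further evidence for them. Between the tdTomato and EYFP lines, 7 of 39 were higher and 8 lower in NSCs (33.2% of all genes called, 18% and 15.2%), a count of 15 that became 9 with no filter. In astrocytes 4 of 38 were higher and 2 lower (11.2% called, 5.6% and 5.63%), a count of 6 that became 2 with no filter. The change differed between these 2 lines for 10 members, 7 with a higher and 3 with a lower change in the tdTomato line (13.3% called, 6.36% and 6.98%).

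Within some groups 1 library was highest for most members. In the tdTomato NSCs replicate 2 held the highest of the 3 values for 28 of the 39 members, where it was highest for 27.3% of the 15448 genes tested, and replicate 3 the lowest for 28, where it was lowest for 32.1% of all genes. The median deviation of the members from their group mean was 0.18 in replicate 2 and -0.12 in replicate 3, with medians of 0.00 and 0.01 over all genes. In the hippocampal NSCs replicate 3 was highest for 26 of the 39 members and for 36.9% of all genes, with a median deviation of the members of 0.07. The SD over the 3 libraries was larger in NSCs than in astrocytes for 30 of the 39 members in the tdTomato line, for 21 in the EYFP line and for 19 in the hippocampal line, against 43.4%, 43.6% and 40.8% of all genes. Among the members highest in tdTomato replicate 2 were Hk2 at 9.88, Pfkl at 11.75, Pdk1 at 10.71, Vegfa at 11.71 and Bnip3 at 10.04. Without tdTomato replicate 2, 28 members were called in the tdTomato line (27 with it), 13 between the traced lines in NSCs (15 with it) and 27 in the difference of the change between origins (26 with it). Without tdTomato replicate 3 the same counts were 30, 20 and 26. Which passages these libraries are, and what set them apart, is not given in the sources used here and was not tested.

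Beyond the members, lists of related genes were counted over all lines against the same 81.9%. Of 33 tested further genes of glycolysis and lactate 13 rose and 14 fell, led by Ldhd, the D-lactate dehydrogenase, at 2.73 (SE 0.14), Fbp1, the gluconeogenic bisphosphatase, at -1.84 (SE 0.19), and Emb, a partner protein of monocarboxylate transporters, at 1.77 (SE 0.33). Of 19 further glycogen genes 9 rose and 9 fell. Phkg1, the catalytic subunit of phosphorylase kinase, rose by 4.86 (SE 0.08), Pgm5, a phosphoglucomutase relative without known enzyme activity, by 4.02 (SE 0.09), and Epm2a, the glycogen phosphatase laforin, by 0.80 (SE 0.10). Phkg1 lay between 4.97 and 5.88 in the NSC and between 10.04 and 10.59 in the astrocyte libraries. Of 25 further HIF pathway and target genes 10 rose and 12 fell, with Adm at -3.06 (SE 0.23), Ankrd37 at -2.11 (SE 0.19) and Ndrg1 at 1.56 (SE 0.32). The pentose phosphate list had 2 higher and 5 lower of 8, with Rpia at -0.87 (SE 0.07), Pgls at -0.70 (SE 0.05) and G6pdx at 0.48 (SE 0.06). In the serine branch, which leaves glycolysis at 3-phosphoglycerate, 0 rose and 4 fell of 5, with Shmt1 at -2.02 (SE 0.07), Psat1 at -1.81 (SE 0.24) and Shmt2 at -1.33 (SE 0.12). Of 15 regulators 8 rose and 3 fell, with Txnip, an inhibitor of glucose uptake, at 3.07 (SE 0.16), Foxo3 at 0.94 (SE 0.03) and Mlxip at 0.85 (SE 0.10).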

How the data were processed

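RNA-seq of 18 libraries (3 culture lines, 2 fates, 3 passages each) was analysed from the 1 deposited table of 27997 genes. The deposited log2 values were made by the authors with Trimmomatic (0.36), STAR (2.5.2), RSEM (1.3.0) on GRCm38 and DESeq2 (1.18.1) in R (3.4.3), as named in the submitters' processing notes. The notes and the study's methods name different library kits. The transform is not named. Values run from -2.15 to 18.86, with 29.4% below 0, and some log transforms draw low genes towards their mean, so changes of low genes may be understated. Counts and depth are not recoverable from them, so no counting error is given. The authors compared counts with DESeq2, and limma was used here because the table holds log values.

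Groups were taken from the labels. limma (3.58.1, R 4.3.3) with a variance trend was fitted to genes with a linear value of at least 10 (log2 3.32) in at least 3 fitted libraries, with Benjamini-Hochberg adjustment over all genes tested and a threshold of 0.05. Fits within 1 line used its 6 libraries, fits between lines the libraries of 1 fate, and differences of the change all 18. The code was tested on simulated data. The members and gene lists were chosen with earlier results of these data known. All 39 members are described, and those given with every library are the members called in a difference of the change and those with the largest changes of their role. Eno1 and Eno1b, which are read together, lie outside this rule and were given in full after their values were seen. From other lists the 3 called genes with the largest change over all lines are named. Members and coordinates were matched by ID to GENCODE M21 (GRCm38). Promoter windows are from RefSeq (GRCm38.p6). Lengths are unions of annotated exons, and shared stretches of 75 bases were counted over its transcripts. Paralogue differences and shares are descriptions without a test. Replicates of a group differed by a median of 0.0612 to 0.108 (log2) over expressed genes, so no library was a copy. Alternatives were 2 normalizations, 2 filters, no trend, the replicate number as a block, 1 model of 6 groups and each library left out.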

Additional observations from a re-analysis of the deposited data

Results flagged for a closer look

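The NSC to astrocyte change of 26 of the 39 members differed between the traced lines and the hippocampal line, by limma's interaction test over all 18 libraries (adjusted p under 0.05). Of all 15448 genes tested, 46.2% were called (20.3% higher and 25.9% lower). The log2 difference of the change, traced minus hippocampal, was above 0 for Gpi1 (0.46), Pfkm (0.45), Pfkfb2 (0.27), Aldoc (0.78), Gapdh (0.38), Pgam1 (0.42), Ldhb (1.10), Slc2a1 (0.61), Pdk1 (0.71), Pdk2 (0.55), Pdha1 (0.63), Pgm1 (0.47), Gys1 (0.40), Ugp2 (0.22), Pygb (0.79), Pygm (2.22), Ppp1r3c (0.62), Hif1a (0.41) and Vegfa (0.92). It was below 0 for Hk2 (-0.92), Pfkp (-2.89), Pfkfb3 (-0.51), Eno2 (-1.32), Ldha (-0.29), Slc16a1 (-0.58) and Pgm2 (-0.63). Of these, Ldha had the highest adjusted p (0.0447), and its call was lost under 5 planned settings other than leaving out a library and on leaving out any of 10 of the 18 libraries. The effects of origin, genotype and culture history on these differences cannot be told apart, since the hippocampal cells are a single line.

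By the same test the change of 10 of the 39 members differed between the tdTomato and the EYFP line, where 13.3% of all genes were called (6.36% higher and 6.98% lower). The log2 difference, tdTomato minus EYFP, was above 0 for Pfkfb2 (0.38), Aldoc (0.54), Ldhb (0.25), Pdk2 (0.35), Pdha1 (0.26), Pygb (0.42) and Ppp1r3c (0.87), and below 0 for Ldha (-0.60), Slc16a1 (-0.62) and Pdk4 (-0.59). The call was lost on leaving out any of 12 of the 18 libraries for Ldhb, any of 12 for Pdk2 and any of 14 for Pdk4. Replicate 2 of the tdTomato NSCs, the highest of its group for 28 of the 39 members, enters each of these differences, and without it 8 members were called. Reporter genotype, culture line and sex-linked expression differ together between the tdTomato and EYFP lines and cannot be told apart.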

How the results depend on the processing

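The number of members called stayed within 1.5 times the value given, under every planned setting, for the changes over all lines and within each line, for the origins in astrocytes and for both differences of the change. Leaving out 1 library gave 27 to 29 over all lines, 27 to 30, 29 to 32 and 34 to 36 in the tdTomato, EYFP and hippocampal lines, 25 to 28 between origins in astrocytes, and 24 to 27 and 7 to 11 for the differences of the change. The 7 members called between origins in NSCs became 3 with no filter, 4 with no variance trend, 4 with the replicate block, 11 in 1 model of 6 groups, and 3 to 8 on leaving out 1 library. The 15 called between tdTomato and EYFP NSCs became 9 with no filter (12 to 20 on leaving out 1 library), and the 6 in astrocytes became 2 with no filter and 13 with the replicate block (4 to 7). The cause was not tested. Each traced line alone against the hippocampal line was chosen after seeing the data. In NSCs it called 19 members for the tdTomato and 13 for the EYFP line, and with the EYFP line Ldha (-0.24, adjusted p = 0.0406) and Hif1a (-0.14, adjusted p = 0.0435) turned direction, as did the difference of the change of Ldha (0.01, adjusted p = 0.952). For single members no direction turned under any planned setting. Among the calls printed in the report, those lost with no filter included Aldoa in the tdTomato line, Pygl in the EYFP line, Hk2 between origins and Pfkp between traced lines in astrocytes, and the differences of the change of Ldha between origins and of Ldhb, Pdk2 and Pdk4 between traced lines. With no variance trend all of these but Hk2 were lost, and with median centring those of Pygl, Hk2, Ldha and Pdk4 and of Gpi1 over all lines.

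The replicate numbers were not taken to pair the libraries, since not every same-numbered pair correlated by more than 0.1 and the labels name nothing shared. Deviations from the group means of same-numbered libraries correlated by 0.012 to 0.313 (mean 0.106, 18 pairs) between lines of a fate, where pairs with different numbers gave -0.345 to 0.12 (mean -0.053, 36 pairs), and by -0.076 to 0.034 (mean -0.023, 9 pairs) between fates of a line. With the replicate block the counts were otherwise 27, 29 and 36 in the tdTomato, EYFP and hippocampal lines, 27 between origins in astrocytes, 18 between traced NSCs and 25 and 8 for the differences of the change. Under the block the calls of Pygl in the EYFP line (adjusted p = 0.0706), of Aldoc (0.0643), Slc16a3 (0.1) and Pygb (0.0844) between origins in NSCs, of Hk2 between origins in astrocytes (0.0645), and of the differences of the change of Ldha between origins (0.0569) and of Pdk2 (0.0596) and Pdk4 (0.0544) between traced lines were lost. Between tdTomato and EYFP it added calls of Hk1, Hk2 and Gapdh in NSCs and of Pfkm, Aldoc, Tpi1, Pygb, Pygm, Ppp1r3c and Bnip3 in astrocytes.

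The depth of the libraries is unknown from log2 values, each line is 1 culture line, and 3 passages per group limit every test. Genes near the filter, such as Pygl and Slc16a3, and genes with processed copies are less certain.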

Other observations

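Of the 10 genes listed for the NADH shuttles, which carry the electrons of glycolytic NADH into mitochondria, all 10 had a larger log2 change in the traced lines than in the hippocampal line, as did 20.3% of all genes tested, by limma's test of the difference of the change (adjusted p under 0.05). The differences were 1.32 (SE 0.18, adjusted p = 1.2e-05) for Slc25a13, an aspartate-glutamate carrier, 1.11 (SE 0.11, adjusted p = 3.8e-07) for Gpd1, cytosolic glycerol-3-phosphate dehydrogenase, 1.06 (SE 0.08, adjusted p = 7e-09) for Got1, 0.97 (SE 0.06, adjusted p = 8.8e-10) for Gpd2, and between 0.13 and 0.68 for Got2, Gpd1l, Slc25a12, Mdh2, Mdh1 and Slc25a11. In the hippocampal line 8 of the 10 fell and 0 rose, with Slc25a13 at -2.23 and Got1 at -1.51. In the tdTomato line 4 rose and 3 fell, and in the EYFP line 5 rose and 4 fell. Over all lines 4 rose and 5 fell. The list was chosen with earlier results of these data known.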
